A study of Mus musculus with 10 samples.

Results

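Germinal center positioning and confinement genes were examined in sorted germinal center (GC) B cells of mice with and without ZBTB38, a BTB zinc finger protein known to bind methylated CG dinucleotides. The 10 genes, of 22380 in the tables, were chosen by what their products do, with earlier results of these data known: the receptors S1pr2, S1pr1, Cxcr4, Cxcr5, Ccr7, Ccr6 and Gpr183, the G protein subunit Gna13, its effector Arhgef1 and the G protein inhibitor Rgs13. All 10 were found by symbol and all 10 passed the filter on low counts. Each of the 10 libraries came from GC B cells of 1 mouse. The cells bound the hapten NP, carried the GC marker GL7, lacked IgD, and were taken 2 weeks after the mice received NP-OVA in Alhydrogel. The 2 WT mice were Zbtb38fl/fl with no Cre, the 2 HET mice were Zbtb38fl/+ with Vav-Cre and the 6 KO mice were Zbtb38fl/fl with Vav-Cre, all of strain C57Bl6/N. The floxed exon holds the whole coding sequence, and the allele goes back to 1 founder. Vav-Cre acts across hematopoietic cells, so T cells and myeloid cells of the KO mice were also targeted. Age and sex were not given in the labels.

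GC B cells cycle between a dark zone, where they divide and mutate, and a light zone, where they meet antigen and follicular helper T cells. Gradients of CXCL12 and CXCL13, read by CXCR4 and CXCR5, draw the cells to the dark zone and to the follicle and light zone. S1PR2, working through the G alpha 13 protein and the exchange factor ARHGEF1, holds the cells inside the GC, while receptors for exit, the T zone or the outer follicle are kept low there. RGS13 turns off the G alpha i proteins that chemokine receptors use.

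Each library held between 26612431 and 41059082 estimated counts. Zbtb38 averaged 157 ± 7.02 CPM (counts scaled to library size, SD, n = 2) in WT, 112 ± 8.23 (n = 2) in HET and 31.7 ± 10.8 (n = 6) in KO, with every KO library below every other one. Bcl6, the transcription factor that defines GC B cells, was present throughout, at 59.3 to 122 TPM (the length-corrected share of a library) over the 10 libraries. KO replicate 6 stood apart, with a median correlation of 0.90 to the other libraries against 0.929 to 0.949 for the rest, and its summed GC B cell markers (9 genes, S1pr2 left out) were the lowest at 1302 TPM against 1850 to 2326 TPM elsewhere. Results are therefore also given without it. Cd38, one of the 9 genes and also counted among the naive and memory markers, was highest in KO replicate 6 at 87.5 TPM. T cell RNA was present in all libraries. Cd3e, a T cell receptor chain partner, was at 15.5 and 19.8 TPM in WT, 1.74 and 4.68 TPM in HET and 3.85 to 8.52 TPM in KO. In such bulk samples fewer cells of a type and less RNA per cell cannot be told apart.

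The stretches of 250 bases upstream of the transcription start are shown for S1pr2 and Cxcr4, which hold the cells in place, and for Gpr183, Ccr6 and Rgs13, to show stretches with many and with few CG dinucleotides, the bases a methyl-CG binding protein could contact. Sequences are from RefSeq on GRCm38.p6, are read 5′ to 3′ on the strand of the gene, and have every CG in capitals. RefSeq start sites were at hand for 7 of the 10 genes.
S1pr2, chr9:20976794-20977043, minus strand: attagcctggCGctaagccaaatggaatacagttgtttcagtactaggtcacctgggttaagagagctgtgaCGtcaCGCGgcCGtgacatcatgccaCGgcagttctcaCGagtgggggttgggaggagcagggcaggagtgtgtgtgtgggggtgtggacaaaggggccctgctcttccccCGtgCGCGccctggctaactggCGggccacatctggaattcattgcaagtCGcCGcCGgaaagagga
Cxcr4, chr1:128592300-128592549, minus strand: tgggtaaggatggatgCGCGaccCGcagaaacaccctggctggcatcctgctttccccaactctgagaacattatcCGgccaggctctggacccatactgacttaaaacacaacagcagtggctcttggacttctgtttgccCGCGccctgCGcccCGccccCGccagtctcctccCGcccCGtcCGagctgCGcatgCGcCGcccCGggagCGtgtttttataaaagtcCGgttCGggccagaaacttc
Gpr183, chr14:121965194-121965443, minus strand: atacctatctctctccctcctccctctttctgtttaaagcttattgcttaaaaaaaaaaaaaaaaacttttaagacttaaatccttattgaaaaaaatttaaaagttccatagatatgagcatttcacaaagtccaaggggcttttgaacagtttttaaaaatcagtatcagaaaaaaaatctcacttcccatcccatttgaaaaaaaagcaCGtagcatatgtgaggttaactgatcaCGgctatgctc
Ccr6 upstream start, chr17:8235793-8236042, plus strand: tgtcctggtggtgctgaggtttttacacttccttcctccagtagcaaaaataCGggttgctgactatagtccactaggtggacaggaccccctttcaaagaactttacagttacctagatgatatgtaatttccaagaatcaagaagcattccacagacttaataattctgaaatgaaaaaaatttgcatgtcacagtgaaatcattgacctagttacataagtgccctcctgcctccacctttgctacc
Ccr6 downstream start, chr17:8242276-8242525, plus strand: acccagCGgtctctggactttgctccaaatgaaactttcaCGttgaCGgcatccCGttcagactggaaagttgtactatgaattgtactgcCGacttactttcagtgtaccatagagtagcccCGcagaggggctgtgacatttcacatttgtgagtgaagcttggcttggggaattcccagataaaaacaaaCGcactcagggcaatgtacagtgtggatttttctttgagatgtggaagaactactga
Rgs13, chr1:144177373-144177622, minus strand: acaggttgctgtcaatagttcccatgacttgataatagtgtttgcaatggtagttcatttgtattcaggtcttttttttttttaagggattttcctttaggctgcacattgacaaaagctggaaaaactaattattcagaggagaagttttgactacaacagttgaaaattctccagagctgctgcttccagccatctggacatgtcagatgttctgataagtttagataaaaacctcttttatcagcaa

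CG, which reads the same on both strands, occurred 14 times upstream of S1pr2 and 19 times upstream of Cxcr4. Gpr183 had 2, and the Ccr6 starts had 1 and 7. The Rgs13 stretch had 0. Gna13 was the richest with 33, and the 2 Arhgef1 starts had 25 and 17. The median over 32851 promoters of the same length was 6. At least as many CG as upstream of S1pr2 were found in 29.4% of them. The share with at least as many was 4.03% for Gna13 and 81.2% for Gpr183. DNA methylation and ZBTB38 binding were not measured in these libraries, so the counts of CG describe the sequences only.

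The order of the levels was compared per transcript length, in TPM. Rgs13 was the most abundant at a mean of 392.7 TPM over the 10 libraries, followed by Arhgef1 at 356.6 TPM. Cxcr5 (144.7 TPM), S1pr2 (141 TPM) and Gna13 (138 TPM) lay close together. Cxcr4 (40.2 TPM), S1pr1 (39.3 TPM), Ccr7 (32.8 TPM), Ccr6 (21.8 TPM) and Gpr183 (20.5 TPM) formed the lower end. Only 2 neighbours in this order were separated in 10 of 10 libraries, Arhgef1 from Cxcr5 and Gna13 from Cxcr4. The others changed places between libraries: Rgs13 exceeded Arhgef1 in 6, Cxcr5 exceeded S1pr2 in 5, S1pr2 exceeded Gna13 in 6 and Cxcr4 exceeded S1pr1 in 6. The confinement genes, Cxcr5 and Rgs13 thus made up the upper level, and Cxcr4 with the receptors for exit, the T zone and the outer follicle the lower one. The ligands were almost absent: Ccl21a was listed at 0 TPM in every library and Cxcl13 reached 0.705 TPM.

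S1pr2, the receptor that confines GC B cells, lies on chromosome 9 (20962361 to 20976781, minus strand, GRCm38). It stood at 545 and 510 CPM in WT and at 661 and 644 CPM in HET. The KO libraries ran from 296 to 602 CPM with a median of 542 CPM. WT values fell within the KO range, whereas both HET values lay above all 6 KO values. KO replicate 6 was the lowest library at 296 CPM and KO replicate 4 the next at 430 CPM.

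Gna13 (chromosome 11, 109362831 to 109401369, plus strand) encodes the G alpha 13 subunit that relays the S1PR2 signal. It was at 275 and 261 CPM in WT, 403 and 367 CPM in HET and 193 to 316 CPM in KO, with a KO median of 269 CPM. It repeated the arrangement of S1pr2, with HET above every other library and KO replicate 6 lowest. Arhgef1 (chromosome 7, 24902912 to 24926594, plus strand), the exchange factor downstream of G alpha 13, varied little in CPM. Its values were 624 and 638 CPM in WT, 609 and 663 CPM in HET, and 480 to 672 CPM in KO with a median of 554 CPM. All groups overlapped for Arhgef1. In TPM its KO libraries spread wider, from 251 to 461 TPM, a 1.84-fold range against 1.40-fold in CPM.

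S1pr1 (chromosome 3, 115710433 to 115715072, minus strand), the receptor that draws lymphocytes out of tissue towards S1P in blood and lymph, ran the other way. It was at 84.6 and 108 CPM in WT and at 45.8 and 38.0 CPM in HET. In KO it ranged from 48.0 CPM to 209 CPM with a median of 63.5 CPM. HET was below all other libraries, and KO replicate 6 was 4.36-fold above KO replicate 1. Within each library the S1pr2 to S1pr1 ratio in TPM was 3.40 and 2.81 in WT, 8.20 and 9.55 in HET, and 6.44, 5.45, 5.19, 1.90, 4.99 and 0.828 in KO replicates 1 to 6. KO thus held values above and below WT, and KO replicate 6 was the one library in which S1pr1 exceeded S1pr2.

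**Figure D1:**
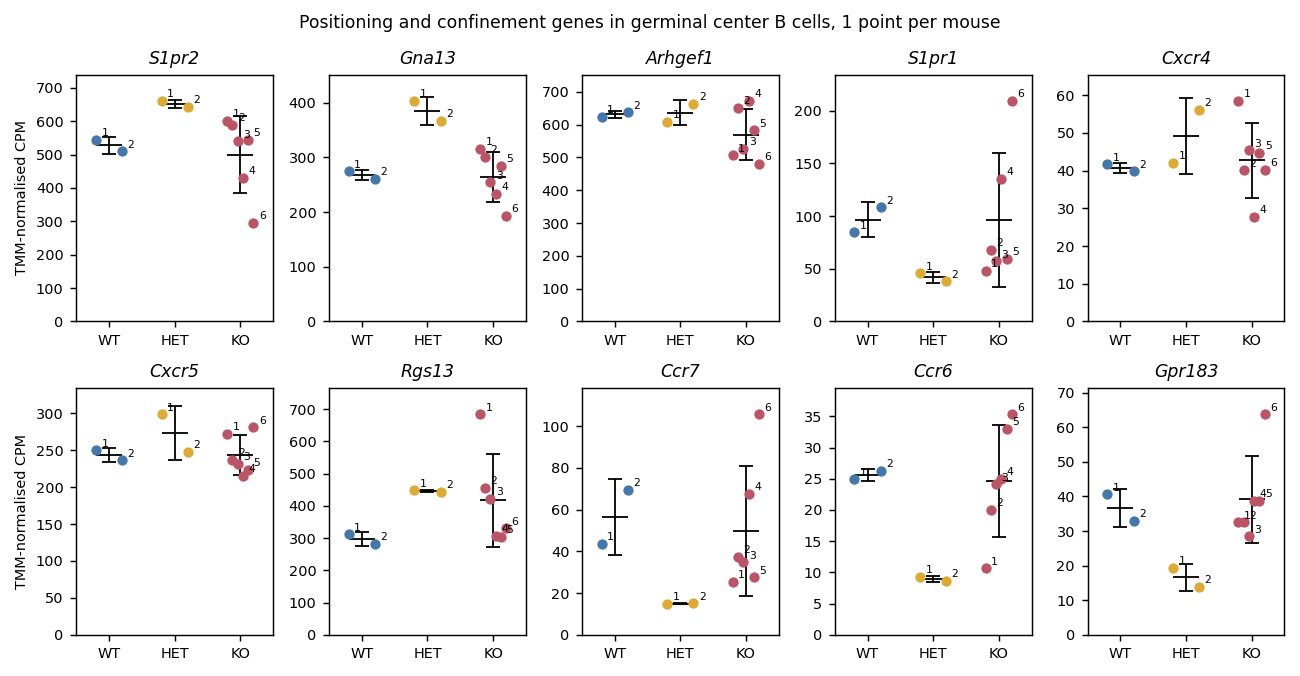
CPM of the 10 genes on linear axes that start at 0, with 1 numbered point per mouse, a line at the group mean and bars of 1 SD for WT (n = 2), HET (n = 2) and KO (n = 6). S1pr2 and Gna13 are highest in HET, S1pr1, Ccr7, Ccr6 and Gpr183 are lowest in HET, and KO replicate 6 is at the end of the KO range for S1pr2, Gna13, Arhgef1, S1pr1, Cxcr5, Ccr7, Ccr6 and Gpr183.

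Cxcr4 (chromosome 1, 128588199 to 128592293, minus strand), the dark zone receptor, was at 41.7 and 39.8 CPM in WT, 42.0 and 56.2 CPM in HET and 27.8 to 58.5 CPM in KO, with a median of 42.5 CPM. KO held both the highest and the lowest library. Cxcr5 (chromosome 9, 44511787 to 44561877, minus strand), the receptor for CXCL13, was at 250 and 236 CPM in WT, 299 and 247 CPM in HET and 215 to 281 CPM in KO, with a median of 234 CPM. Cxcr5 varied least between the KO mice, with a coefficient of variation of 11.0% against a median of 28.5% over 14354 genes. The Cxcr4 to Cxcr5 ratio in TPM ran from 0.200 to 0.322 in KO, which spans the WT values of 0.265 and 0.281.

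Rgs13 (chromosome 1, 144138654 to 144177372, minus strand) was at 311 and 281 CPM in WT and 448 and 443 CPM in HET. In KO it ran from 304 to 684 CPM with a median of 376 CPM, and KO replicate 1 held the highest value. WT and HET did not overlap, WT replicate 2 was the lowest of all libraries, and the HET values lay within the KO range.

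Ccr7 (chromosome 11, 99144196 to 99155077, minus strand), which guides cells to the T zone, was at 43.7 and 69.4 CPM in WT, 14.9 and 15.0 CPM in HET and 25.3 to 106 CPM in KO, with a median of 36.0 CPM. Ccr6 (chromosome 17, 8236043 to 8257141, plus strand), a chemokine receptor found on naive and memory B cells, was at 24.9 and 26.2 CPM in WT, 9.31 and 8.61 CPM in HET and 10.6 to 35.3 CPM in KO, with a median of 24.6 CPM. Gpr183 (chromosome 14, 121952551 to 121965195, minus strand), the oxysterol receptor known as EBI2 that brings B cells to the outer follicle, was at 40.7 and 32.9 CPM in WT, 19.4 and 13.9 CPM in HET and 28.5 to 63.8 CPM in KO, with a median of 35.7 CPM. For all 3 receptors HET lay below every other library, KO replicate 6 was the highest, and WT fell within the KO range. S1pr1 and Ccr7 varied most between the KO mice, with coefficients of variation of 66.4% and 63.0%.

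KO was first compared with WT, the contrast of deleted against intact Zbtb38, in which KO mice also carry the Cre that WT mice lack. None of the 10 genes differed by more than the spread between mice, and all 10 overlapped between the groups. No member passed the threshold: 0 of 10 had an adjusted p under 0.1 in edgeR's quasi-likelihood test, where 0.00704% of 14203 genes (Zbtb38 alone) did. At an unadjusted p under 0.05 there were 0 members, where 2.19% of genes passed, and 0 members had groups that did not overlap, where 6.58% of genes had. The largest difference was that of Rgs13, 1.41-fold higher in KO (log2 fold change 0.49, SE 0.293, unadjusted p = 0.122, adjusted p = 0.999 in edgeR with Benjamini-Hochberg adjustment). The confinement genes and zone receptors had narrower intervals than the outward receptors. S1pr2 had a log2 fold change of -0.08 (95% interval -0.59 to 0.44), Gna13 -0.02 (-0.42 to 0.38) and Arhgef1 -0.15 (-0.48 to 0.19). Cxcr5 was at 0.00 (-0.31 to 0.31) and Cxcr4 at 0.07 (-0.46 to 0.60). Those of the outward receptors were S1pr1 -0.00 (-1.14 to 1.13), Ccr7 -0.18 (-1.29 to 0.92), Ccr6 -0.05 (-0.87 to 0.77) and Gpr183 0.09 (-0.55 to 0.73). As a fold, the S1pr1 interval ran from 0.455 to 2.18, and a change within it was not told apart from none. DESeq2 also called 0 members in this comparison. Without KO replicate 6 the log2 fold changes were -0.39 for S1pr1, -0.55 for Ccr7, -0.18 for Ccr6, -0.11 for Gpr183, 0.55 for Rgs13, 0.037 for S1pr2 and 0.053 for Gna13, and again 0 members were called.

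KO was then compared with WT and HET as 1 control group of 4, the larger of the control sets. Again no receptor or signaling member stood apart: 0 of 10 members passed, where 0.00749% of 13347 genes (Zbtb38 alone) did, and 0 had an unadjusted p under 0.05, where 6.3% of genes had. Gna13 was lower in KO (log2 fold change -0.31, SE 0.160) and Gpr183 higher (0.55, SE 0.304), both with an adjusted p of 0.744 in edgeR with Benjamini-Hochberg adjustment. Ccr6 (0.52), Ccr7 (0.48), S1pr1 (0.48) and Rgs13 (0.17) had positive log2 fold changes, and S1pr2 (-0.24), Arhgef1 (-0.15), Cxcr5 (-0.08) and Cxcr4 (-0.07) negative ones. Without KO replicate 6 these were 0.38 for Ccr6, 0.11 for Ccr7 and 0.09 for S1pr1, and Gpr183 was at 0.35. In this comparison 0 members had groups that did not overlap, where 1.51% of genes had. WT and HET stood on opposite sides of KO for S1pr1, Ccr7, Ccr6 and Gpr183 by median, and the pooled control joined both sides. The highest single library in CPM was KO replicate 6 for each of these genes.

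**Figure D2:**
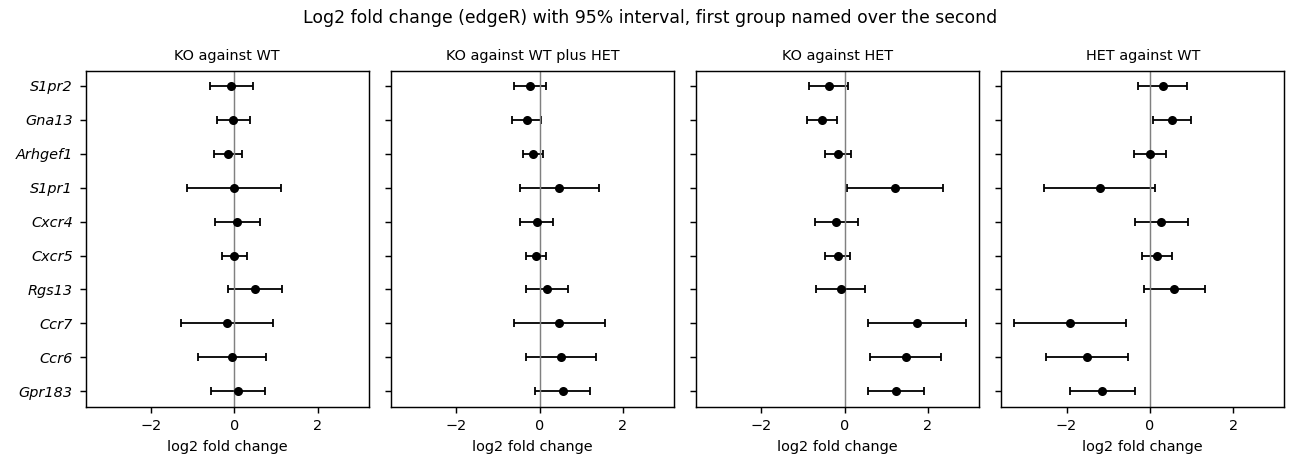
Log2 fold changes of the 10 genes with 95% intervals from edgeR in the 4 comparisons, the group named first over the second. All intervals for KO against WT include 0, while those of S1pr1, Ccr7, Ccr6 and Gpr183 lie above 0 and that of Gna13 below 0 for KO against HET.

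KO and HET mice both carry Vav-Cre and differ in the number of floxed alleles. The receptors that lead cells out of the GC were higher in KO than in HET by value, and S1pr2 and Gna13 lower. Gpr183 was 2.35-fold higher in KO (log2 fold change 1.23, SE 0.310, adjusted p = 0.299). Ccr6 was 2.76-fold higher (1.46, SE 0.391, adjusted p = 0.322) and Ccr7 3.33-fold higher (1.73, SE 0.541, adjusted p = 0.370). S1pr1 was 2.29-fold higher (1.20, SE 0.528, adjusted p = 0.479). Gna13 was 1.46-fold lower in KO (-0.55, SE 0.166, adjusted p = 0.370), and S1pr2 1.30-fold lower (-0.38, SE 0.216, adjusted p = 0.562). None passed in edgeR with Benjamini-Hochberg adjustment, where 0.00697% of 14354 genes (Hnrnpll alone, named after its value was seen) did. Hnrnpll was higher in KO at a log2 fold change of 9.67 (SE 1.10). Zbtb38, the deleted gene, did not pass either, though every KO library lay below HET. It was 3.53-fold lower in KO (-1.82, SE 0.261, adjusted p = 0.128 in edgeR). At an unadjusted p under 0.05 there were 5 members, where 10.2% of genes passed. Of these, 4 were higher and 1 lower in KO, where 4.76% of genes were higher and 5.46% lower. In CPM the groups did not overlap for 6 of 10 members, where 13.9% of genes did not overlap. There were 4 higher and 2 lower in KO, where 5.77% and 8.12% of genes were. In TPM 3 of these 6 overlapped: KO replicate 1 lay below HET for S1pr1 (17.9 TPM against 18.5 and 21.8) and for Ccr6 (8.09 TPM against 9.07 and 9.51), and KO replicate 2 lay above HET for S1pr2 (185 TPM against 176 and 179). On the longer S1pr2 transcript, ENSMUST00000054197.6, KO replicate 2 was at 134 TPM, below HET at 143 and 142 TPM. The short ENSMUST00000214218.1 held 51.7 TPM in KO replicate 2 on 156 estimated counts. Without KO replicate 6 the log2 fold changes were 1.04 for Gpr183, 1.34 for Ccr6, 1.37 for Ccr7, 0.82 for S1pr1 and -0.47 for Gna13, and 5 members again had an unadjusted p under 0.05.

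DESeq2's Wald test called 4 members in KO against HET at an adjusted p under 0.1: Gpr183 (adjusted p = 0.00899), Ccr6 (0.0122), Ccr7 (0.0222) and Gna13 (0.0901). It called 458 of 14354 genes in all, where edgeR called 1. These calls rest on 2 HET libraries, and edgeR made none of the 4.

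HET was compared with WT with the spread shared over all 10 libraries. The outward receptors were lower in HET by value, and Gna13 higher. Ccr7 was 3.78-fold lower in HET (log2 fold change -1.92, SE 0.613), Ccr6 2.85-fold lower (-1.51, SE 0.446) and Gpr183 2.21-fold lower (-1.15, SE 0.356), each with an adjusted p of 0.709 in edgeR with Benjamini-Hochberg adjustment. Gna13 was 1.44-fold higher (0.52, SE 0.211, adjusted p = 0.745). S1pr1 was 2.30-fold lower (-1.20, adjusted p = 0.794). No member passed, where 0.00697% of genes (again Hnrnpll alone) did. At an unadjusted p under 0.05 there were 4 members, where 6.42% of genes passed. Of these, 3 were lower and 1 higher in HET, where 3.98% of genes were lower and 2.44% higher. The 2 groups of 2 did not overlap for 8 of 10 members, where 48% of all genes did not overlap. There were 4 higher and 4 lower in HET, where 23.5% and 24.5% of genes were. A fit of the 4 WT and HET libraries alone called 6 of the 10 members and 523 genes in all, and the fit with the replicate number as a block called Ccr7 (adjusted p = 0.0374 in edgeR with Benjamini-Hochberg adjustment). The block fit called further genes, whose number is given with the dependence on the processing below. KO replicates 3 to 6, without a partner of the same number, each took a term of their own in it and added nothing. By genotype HET differs from WT in Cre as well as in Zbtb38, and the 2 cannot be told apart. Hnrnpll was lower in HET at a log2 fold change of -10.3 (SE 1.15), a further difference whose source was not tested. This comparison and that of KO with HET share the HET libraries, so their values for the members are not independent.

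T cell and myeloid markers were lower in HET than in WT by value, while T follicular helper markers went both ways. The summed T cell markers (20 genes) were at 587 and 674 TPM in WT, 253 and 283 TPM in HET and 315 to 491 TPM in KO. Lck, a large part of that sum, was at 116 and 124 TPM in WT and 122 and 120 TPM in HET. Trbc2 was at 69.0 and 94.0 TPM in WT and 9.71 and 12.5 TPM in HET. Of the 20 genes, 1 had a positive log2 fold change in HET against WT. The myeloid markers (12 genes) were at 637 and 512 TPM in WT, 78.3 and 108 TPM in HET and 72.6 to 907 TPM in KO, and Elane was at 0 throughout. The T follicular helper markers (9 genes, Cxcr5 left out) were at 98.0 and 98.3 TPM in WT, 103 and 101 TPM in HET and 72.2 to 109 TPM in KO. The naive B cell markers (9 genes, Ccr7 left out) were at 945 and 1024 TPM in WT, 695 and 719 TPM in HET and 563 to 1076 TPM in KO. The memory B cell markers (6 genes, Ccr6 left out) were at 118 and 141 TPM in WT, 103 and 91.0 TPM in HET and 74.5 to 213 TPM in KO. Single KO libraries lay below HET in the myeloid, naive and memory sums. KO replicates 4 and 6 held the highest naive sums, 1076 and 1074 TPM, and the highest memory sums, 164 and 213 TPM. In CPM they were also the KO libraries with the highest S1pr1 and Ccr7 and the lowest S1pr2 and Gna13. In TPM this held for KO replicate 6 and not for S1pr2 of KO replicate 4, which at 131 TPM lay above KO replicates 1 and 3 (115 and 128 TPM). On the S1pr2 transcript ENSMUST00000054197.6 alone, KO replicate 4 was at 99.5 TPM, below KO replicates 1 and 3 (102 and 106 TPM). The part of these cell types in the values of the members was not tested.

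Klf2, a transcription factor known to switch on S1pr1 in lymphocytes and a naive B cell marker, was at 101 and 118 TPM in WT, 27.1 and 32.8 TPM in HET and 47.7 to 160 TPM in KO. Its lowest libraries were those of HET and its highest KO replicate 6. Klf2 was higher in KO than in HET by a log2 fold change of 1.67 (SE 0.435, adjusted p = 0.315 in edgeR) and was at -0.18 against WT (SE 0.403, adjusted p = 0.999). Ighd, the IgD heavy chain that the gate selects against, was at 119 and 177 TPM in WT, 40.9 and 45.3 TPM in HET and 55.1 to 169.7 TPM in KO.

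Followed over the 10 libraries one by one in CPM, S1pr2 and Gna13 moved with each other and against S1pr1, Ccr7, Ccr6 and Gpr183, and in TPM these relations of S1pr2 were weaker. S1pr2 and Gna13 kept nearly the same order over the libraries (Spearman rho 0.99, Pearson r 0.91, and r 0.96 without the 2 libraries farthest from the median of S1pr2, n = 10). S1pr1 and Ccr7 did so too (rho 0.96, r 0.96, and 0.95 without 2 libraries). S1pr2 ran against S1pr1 (rho -0.90, r -0.93, and -0.83 without 2 libraries) and against Ccr7 (rho -0.93, r -0.87, and -0.90). S1pr1 ran with Gpr183 (rho 0.90, r 0.82, and 0.71) and with Ccr6 (rho 0.84, r 0.75, and 0.75). In CPM Arhgef1 followed neither (rho 0.10 with S1pr2 and 0.01 with S1pr1). In TPM, a scale tried after the data were seen, rho of S1pr2 was 0.55 with Gna13, 0.76 with Arhgef1, -0.20 with S1pr1, -0.39 with Ccr7, -0.28 with Ccr6 and -0.35 with Gpr183. The relations among the outward receptors moved less, with a rho of S1pr1 in TPM of 0.94 with Ccr7, 0.89 with Gpr183 and 0.78 with Ccr6. These 10 points share libraries, cell makeup and normalisation, and the values describe them without a test.

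**Figure D3:**
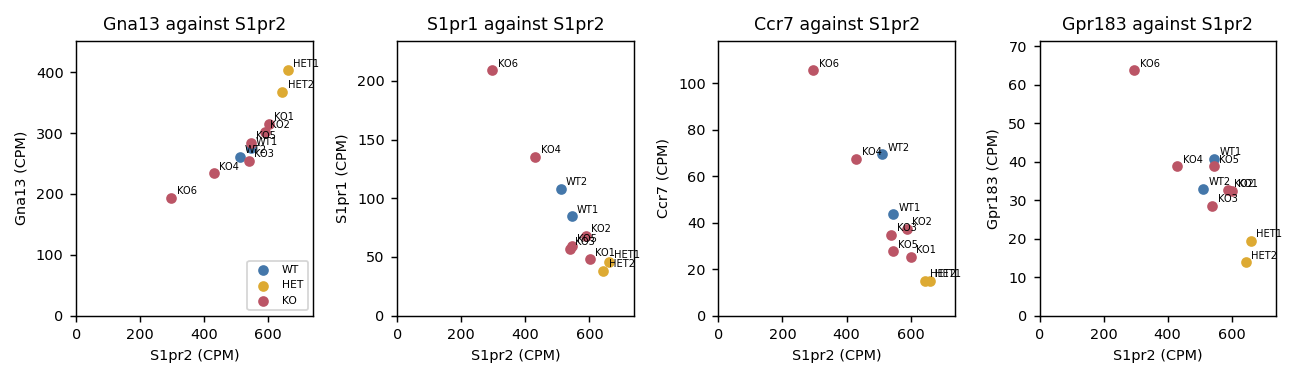
CPM of Gna13, S1pr1, Ccr7 and Gpr183 (vertical axes) against that of S1pr2 (horizontal axes), 1 point per library, coloured by genotype, linear axes from 0. Gna13 rises with S1pr2 and the other 3 fall in CPM, less tightly so in TPM (rho 0.55 for Gna13), with the HET libraries at the high S1pr2 end and KO replicates 6 and 4 at the low end.

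Among 8587 genes with a mean of at least 10 CPM, the 3 whose order over the 10 libraries was most like that of S1pr2 in CPM were Klhl6 (rho 0.99), a B cell gene needed for GC formation, Gna13 (0.99) and Dusp1 (0.98), a phosphatase of MAP kinases. The 3 most like Ccr7 were Rasgef1b (rho 1), Fgd2 (0.99) and Zmynd11 (0.98). For Gpr183 they were Plaur (0.98), Cd9 (0.96) and Nucb2 (0.96). For Cxcr4 they were Gtf2b (0.98), Tubb5 (0.98) and Hnrnpa0 (0.96). Without the 2 libraries farthest from the median of Cxcr4, Pearson r was 0.58 for Gtf2b, 0.76 for Tubb5 and 0.72 for Hnrnpa0.

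Neighbouring pathway genes were counted in 7 lists. In KO against WT, of 11 tested genes of S1P receptors and S1P handling 2 had an unadjusted p under 0.05, where 2.19% of all genes had, both lower in KO. They were S1pr3, a further S1P receptor (log2 fold change -0.60, SE 0.204), and Spns2, the transporter that exports S1P (-1.23, SE 0.492). The median of that list was -0.22, where that of all genes was 0.01. Abcc1, a transporter, was the 1 of 12 confinement partners to reach that level (-0.55), and Plcb2, a phospholipase C acted on by G proteins, the 1 of 14 in the G alpha i chain (-0.67). None was reached among the 16 other chemoattractant receptors, the 12 RGS proteins, kinases and arrestins, the 21 genes of migration machinery or the 2 oxysterol enzymes tested. All adjusted p were 0.999 in edgeR with Benjamini-Hochberg adjustment.

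Against WT plus HET, 6 of 21 migration genes had an unadjusted p under 0.05, where 6.3% of all genes had, all lower in KO: Stk4, the kinase MST1 (-0.46, SE 0.120), Mob1a, its adaptor (-0.45), Myh9, non-muscle myosin (-0.67), Itgb1, an integrin chain (-0.29), Dock8, an activator of CDC42 (-0.39), and Itgal, another integrin chain (-0.43). S1pr3 (-0.50) and Sgpl1, the S1P lyase (-0.45), were lower, as were Plcb3 (-0.54), Pik3cg (-0.36) and Abcc1 (-0.48). None passed, with adjusted p of 0.744 in edgeR with Benjamini-Hochberg adjustment. The median of the migration list was -0.01, where that of all genes was 0.02. Ch25h and Cyp7b1, which make the GPR183 ligand, were listed at 0 TPM in every library.

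Which transcript of a gene was used is a readout that gene totals do not hold. Of the members, 8 had at least 2 transcripts with 5% or more of the TPM. The share of the leading transcript differed between KO and WT plus HET in 0 of 8 by an exact permutation test (two-sided exact p from 0.205 to 0.895, smallest possible 0.00476), where 3.77% of 6983 genes had an exact p under 0.05. Rgs13 had the steadiest division: ENSMUST00000111941.1 took 70.6% ± 0.824 (SD, n = 4) in the controls and 71.6% ± 1.16 (n = 6) in KO. Its 2 transcripts differ in the first and last exons. Gna13 was led by the short ENSMUST00000106702.3, with 57.7% ± 6.47 in the controls and 63.6% ± 6.98 in KO (exact p = 0.214). That transcript held only 15.4% of the estimated counts of Gna13, since TPM divides by length. Likewise the leading S1pr2 transcript held 80.0% of its TPM and 99.4% of its estimated counts.

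Ccr6 was spread over 4 transcripts that took 28.3%, 26.5%, 26.2% and 18.9% of its mean TPM. The leading one, ENSMUST00000097418.7, begins at 8242526 on chromosome 17, just after the second Ccr6 sequence printed above with 7 CG. ENSMUST00000164411 begins at 8236212, downstream of the upstream RefSeq start with 1 CG. The leading share was 33.6% ± 6.63 (SD, n = 4) in the controls and 28.6% ± 8.08 (n = 6) in KO, a difference within the spread of the mice (exact p = 0.333). The shares moved widely between single libraries.

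**Figure D4:**
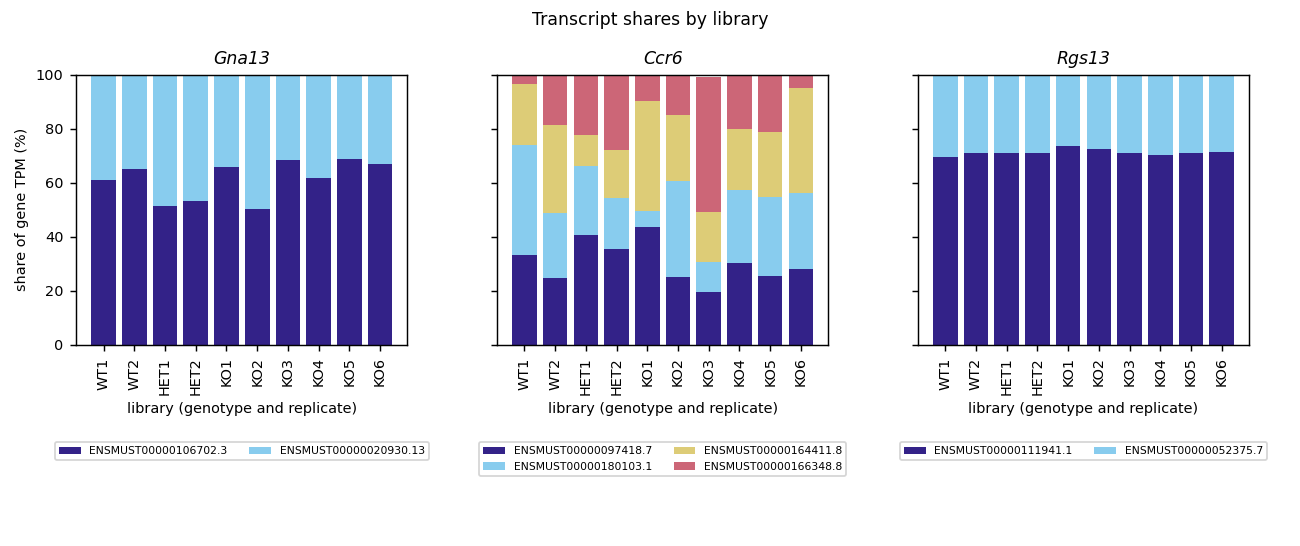
Share of each gene's TPM (percent, stacked bars from 0 to 100) taken by the transcripts of Gna13, Ccr6 and Rgs13 in each of the 10 libraries, with transcripts under 1% left out. Rgs13 is divided alike in all libraries with ENSMUST00000111941.1 near 71.4%, while the 4 Ccr6 transcripts change places from library to library.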

How the data were processed

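RNA of GC B cells was made into SMART-Seq v4 libraries and sequenced from both ends on an Illumina HiSeq. The authors quantified transcripts with Salmon 0.9.1 on Gencode vM17, and the deposited tables hold estimated counts (expected counts) and TPM for each transcript. The deposited TPM of a library sum to 1000000, and the deposited effective length was used for the length-scaled alternative only. The submitters' processing notes also name DESeq2 2.11.40.6. Estimated counts and TPM were summed per gene. Counts were rounded, filtered with filterByExpr, normalised by TMM (factors 0.923 to 1.07) and tested with edgeR 4.0.16 (R 4.3.3, quasi-likelihood, Benjamini-Hochberg threshold 0.1 over all genes tested). KO was compared with WT, and with WT plus HET, in fits of those libraries, and KO with HET and HET with WT in 1 fit of all 10. CPM are TMM-normalised. Intervals of fold changes are at 95%, and p-values measure the spread between mice. Alternatives used DESeq2 1.42.0, limma 3.58.1 on log2(TPM + 1) or log2(TPM + 0.1), other filters and each library left out. Transcript shares were compared by exact permutation over samples, with p adjusted over all 6983 eligible genes rather than over the members as first laid down.

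The members and lists were chosen with earlier results of these data known. The genes named are Zbtb38, the 10 members, up to 10 genes of 7 pathway lists with the smallest unadjusted p under 0.05 in KO against WT and in KO against WT plus HET, the 3 genes most like each of S1pr2, Cxcr4, Ccr7 and Gpr183 by Spearman rho, and defining markers of cell types that moved with a result. Klf2 and Ighd are among these markers. Itgal was named after its value was seen. Gene positions are from Gencode vM21 (GRCm38), matched by gene identifier. No pair of libraries within a genotype was a repeat of one library. The fits were tested on simulated data.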

Additional observations from a re-analysis of the deposited data

Results flagged for a closer look

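In 20 checks of the highest and lowest library of a group (each of the 10 genes in KO and in WT plus HET), 2 values stood farther from the rest than Dixon's limit allows, and chance alone gives about 1 in 20 groups. Gpr183 reached 63.8 CPM in KO replicate 6, where the other KO libraries lay between 28.5 and 38.8 CPM. Cxcr4 reached 56.2 CPM in HET replicate 2, where the other control libraries lay between 39.8 and 42.0 CPM.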

How the results depend on the processing

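For KO against WT, the number of genes called was 5 with DESeq2, 0 with log2(TPM + 1), 3 with log2(TPM + 0.1), 0 with length-scaled counts, 2 in 1 fit of all libraries, 6 with the replicate block and 0 at an adjusted p under 0.05. For KO against WT plus HET it was 18 with DESeq2 and 0 with either TPM fit, length-scaled counts or the replicate block. For KO against HET it was 0 in a fit of those groups alone, 458 with DESeq2 and 4 with the block. For HET against WT it was 523 in a fit of those groups alone, 125 with DESeq2 and 66 with the block. With 1 library left out the counts ran from 0 to 2, 1 to 2, 0 to 5 and 0 to 16 in these comparisons, the 5 without KO replicate 2 and the 16 without KO replicate 6. KO against WT lost its call without WT replicates 1 or 2 or KO replicates 1, 3, 4 or 5, and gave 2 without KO replicate 6.

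Of the members, 0 were called in KO against WT and KO against WT plus HET under every alternative run. In KO against HET, DESeq2 called 4. In HET against WT, 6 were called in the fit of those groups alone (S1pr1, Gna13, Ccr7, Ccr6, Gpr183 and Rgs13), and 1 (Ccr7, adjusted p = 0.0374) with the block. These fits also called many other genes, whose numbers are in the paragraph above. The cause of the calls was not tested.

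Deviations of same-numbered libraries, compared for replicates 1 and 2 only, correlated at -0.018 to 0.110. With 2 libraries in WT and in HET these values are not independent, so whether the mice were paired cannot be told from them. Replicates 3 to 6 exist only in KO, and each took a term of its own in the replicate block. The differences in the block fits thus rest on replicates 1 and 2 of each genotype, with the other KO mice adding nothing. With the replicate block the log2 fold change in KO against WT moved to -0.75 for S1pr1 (adjusted p = 0.492 in edgeR), -0.84 for Ccr7 (0.485), -0.81 for Ccr6 (0.621) and 0.92 for Rgs13 (0.348). It turned to 0.17 for S1pr2, 0.20 for Gna13 and -0.17 for Gpr183 in KO against WT, to 0.016 for S1pr2, -0.27 for S1pr1, 0.13 for Cxcr4, -0.19 for Ccr7 and -0.22 for Ccr6 in KO against WT plus HET, and to 0.33 for Rgs13 in KO against HET. In KO against WT it also turned in TPM with either pseudocount (Cxcr4 -0.13 and -0.13, Cxcr5 -0.13 and -0.13, Gpr183 -0.11 and -0.12), and for Cxcr5 with at least 10 counts per library (-0.0099). None of these was past the threshold in either direction.

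With 1 library left out, log2 fold changes that crossed 0 in KO against WT ran from -0.14 to 0.037 for S1pr2, -0.39 to 0.18 for S1pr1, -0.082 to 0.053 for Gna13, -0.042 to 0.17 for Cxcr4, -0.043 to 0.043 for Cxcr5, -0.55 to 0.19 for Ccr7, -0.18 to 0.10 for Ccr6 and -0.11 to 0.25 for Gpr183. In KO against WT plus HET they ran from -0.18 to 0.056 for Cxcr4 and -0.026 to 0.27 for Rgs13, in KO against HET from -0.40 to 0.025 for Cxcr4, and in HET against WT from -0.050 to 0.074 for Arhgef1. Transcript shares crossed 0 for S1pr2 (-2.22 to 1.34 percentage points) and Cxcr5 (-2.67 to 0.38). The shallowest library held 26612431 estimated counts, and the intervals cover the spread between mice.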

Other observations

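The other chemoattractant receptors were mostly at low levels in these cells. Of 17 quantified, 4 were above 1 TPM in every library. Ackr4, a scavenger of CCL21 and CCL19, was at 26.1 and 28.2 TPM in WT, 41.7 and 41.5 TPM in HET and 20.9 to 41.5 TPM in KO. Gnai2, the G alpha i subunit that most chemokine receptors of lymphocytes use, was at 762 and 808 TPM in WT, 768 and 799 TPM in HET and 599 to 741 TPM in KO. In TPM every KO library thus lay below every WT and HET library. How many of all genes did so in TPM was not counted. From counts, its log2 fold change in KO against WT was -0.01 (SE 0.138, adjusted p = 0.999 in edgeR), so TPM and counts differed for Gnai2. These 2 genes were chosen after their values were seen.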
